A study of Mus musculus with 9 samples.

Results

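The genes described here are those that mark T cells, B cells and plasma cells. They were chosen by name as 36 symbols: 21 of T and cytotoxic cells, 9 of B and plasma cells, and 6 that several kinds of lymphocyte or leukocyte express. A probe of the arrays was annotated to 33 of them, through 65 of the 45281 probes, and 29 were bright enough to be tested among 12741 genes. The expression of Cd79a, Gzma and Lck was not analysed here, and their promoters enter only the motif counts below.

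T cells recognise antigen through a receptor whose signal is carried into the cell by the CD3 chains, Cd3d, Cd3e, Cd3g and Cd247, and by the adaptor and kinase proteins Lat and Zap70. B cells carry surface antibody whose signal passes through Cd79a and Cd79b, and plasma cells, their descendants, secrete antibody. In salivary glands plasma cells supply the secretory antibody of saliva, and lymph nodes lie against the submandibular gland.

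Gene expression was measured on 9 Illumina bead arrays of submandibular glands of Smgb-Tag transgenic mice, with 3 arrays of glands labelled normal, 3 of dysplasia and 3 of adenocarcinoma. In this line the regulatory region of the salivary gene Smgb drives the T antigen of the SV40 virus, an oncoprotein that inactivates p53 and the retinoblastoma proteins, in the gland. The normal glands carry the label Smgb-Tag too, so no comparison here is with a mouse that lacks the transgene. The sources used here state neither age, sex and strain background nor whether the arrays of a group came from separate animals. The p-values therefore measure only how these samples spread, part of which may be technical. Values are given as log2 intensity. The upper edge of the background was set at 6.34 on that scale, which is an intensity of 80.9, and the highest value was 15.63. A gene was read from its brightest probe.

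Normal 3 stood apart from the other 2 normal glands. Its median over 6 cell division genes was 12.29, against 7.32 and 7.94 on normal 1 and normal 2 and 11.47 to 12.67 on the 6 arrays of dysplasia and adenocarcinoma. Over the tested genes the correlation of normal 1 with normal 2 was 0.992, and no tested member differed between them by more than 0.64. For this reason each comparison with normal was fitted over the 9 arrays and again without normal 3. The second fit rests on 2 normal arrays that are very alike, which narrows the spread its differences are tested against. Where only that fit is printed for a gene, the gene did not pass the test over the 9 arrays. The labelled tissue was checked on 11 genes of salivary acinar and duct cells, whose median was 13.94 to 15.38 in normal, 9.55 to 11.99 in dysplasia and 11.74 to 14.75 in adenocarcinoma. On normal 3 both the cell division genes and the salivary genes thus lay nearer to adenocarcinoma 3 than to the other normal glands. Its label is therefore in doubt, whether it is right was not tested, and each value over the 9 arrays treats it as normal.

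In outline, most of the lymphocyte genes were brightest on normal 1 and normal 2, lower on normal 3 and on adenocarcinoma 1, and at or near background on the dysplasia arrays. Normal 1 and normal 2 both lay above the other 7 arrays in 20 of the 29 tested genes, where 18.3% of all tested genes had this order, and normal 3 was the lowest normal array in 27, where 43.4% did. With all 9 arrays no gene passed the test in any comparison, so none of these differences is called there. Without normal 3, 19 of the 29 tested genes fell in dysplasia and 10 fell in adenocarcinoma, where 11.3% and 7.85% of all tested genes fell. Prf1 and Foxp3 rose in both lesions in that fit, and for Foxp3 the direction depended on the probe. Cd53 was also above normal in adenocarcinoma, by a log2 difference of 0.84 that did not pass the test. In bulk tissue, fewer cells of a type and less RNA per cell cannot be told apart.

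**Figure D1:**
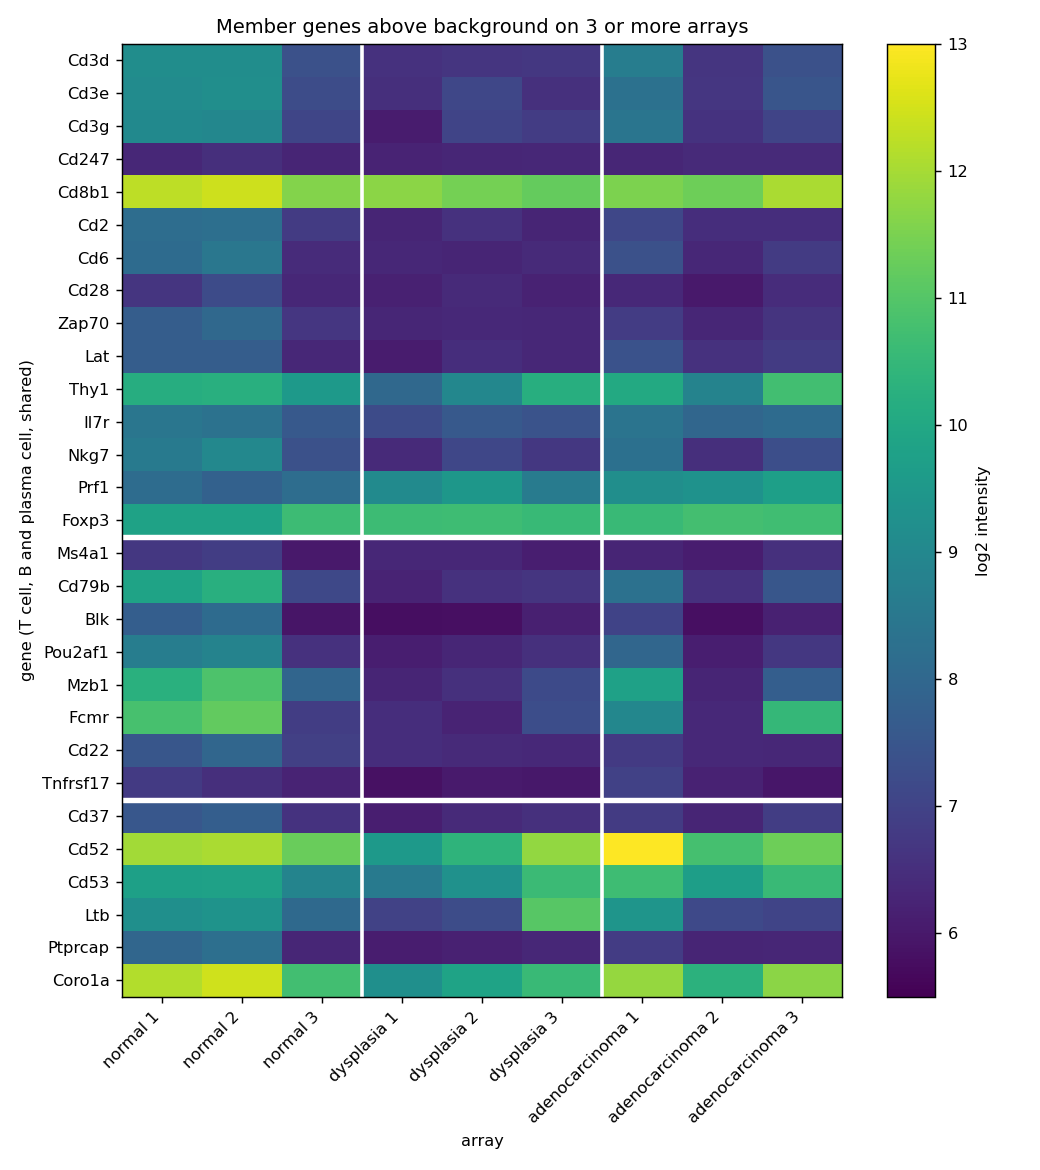
Log2 intensity of the T cell, B cell, plasma cell and shared genes on the 9 arrays, as colour, with a row for each of the 29 tested genes and a column for each array. Normal 1 and normal 2 were above the other 7 arrays in 20 of 29 tested genes, and dysplasia 1 was the lowest dysplasia array in 22, where 33.1% of all tested genes had that order.

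Of the CD3 chains, Cd3d, Cd3e and Cd3g had similar values across the arrays, and Cd247, described further on, did not share them. Cd3d, Cd3e and Cd3g are neighbours on chromosome 9, and the starts of Cd3g and Cd3d, which are read in opposite directions, lie 1355 bases apart. Their promoters are shown for that likeness. The sequences are from RefSeq, build GRCm38.p6, in windows of 300 bases around the start: Cd3d at chr9:44981536-44981835 on the plus strand, Cd3g at chr9:44980382-44980681 and Cd3e at chr9:45009562-45009861, both on the minus strand. Capitals mark the ETS core AGGAAG or its reverse complement, the core recognised by ETS family transcription factors.
Cd3d: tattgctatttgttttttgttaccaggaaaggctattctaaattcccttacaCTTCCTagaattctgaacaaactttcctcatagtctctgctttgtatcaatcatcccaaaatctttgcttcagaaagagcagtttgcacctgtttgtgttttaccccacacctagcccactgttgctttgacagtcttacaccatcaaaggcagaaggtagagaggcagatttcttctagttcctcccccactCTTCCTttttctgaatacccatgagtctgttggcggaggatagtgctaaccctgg
Cd3g: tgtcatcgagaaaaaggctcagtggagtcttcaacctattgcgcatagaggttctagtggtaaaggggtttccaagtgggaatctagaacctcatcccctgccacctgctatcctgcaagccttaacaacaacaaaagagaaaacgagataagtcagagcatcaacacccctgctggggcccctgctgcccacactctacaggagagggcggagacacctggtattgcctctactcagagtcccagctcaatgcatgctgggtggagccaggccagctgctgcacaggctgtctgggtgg
Cd3e: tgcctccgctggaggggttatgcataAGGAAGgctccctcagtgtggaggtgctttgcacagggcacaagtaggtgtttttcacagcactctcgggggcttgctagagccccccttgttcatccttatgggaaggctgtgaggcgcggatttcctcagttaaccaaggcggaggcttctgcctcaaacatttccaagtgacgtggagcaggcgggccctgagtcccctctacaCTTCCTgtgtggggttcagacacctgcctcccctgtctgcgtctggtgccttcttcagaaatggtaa
The ETS core was found at positions -198 and -5 from the start in Cd3d and at -224 and -17 in Cd3e, while the Cd3g window held none of the letters searched. On either strand 35.4% of all 32851 promoters hold this core, and 18 of the 29 member promoters did. These belong to 16 of the 24 members with a promoter among them. These matches describe the letters only.

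The log2 intensity of Cd3d was 9.17, 9.17 and 7.35 on normal 1, 2 and 3, then 6.57, 6.66 and 6.72 on dysplasia 1, 2 and 3, then 8.67, 6.66 and 7.37 on adenocarcinoma 1, 2 and 3. Cd3e, in the same order, was at 9.12, 9.20 and 7.24, then 6.51, 7.10 and 6.55, then 8.29, 6.69 and 7.49. Cd3g was at 9.07, 8.97 and 7.07, then 6.07, 7.05 and 6.84, then 8.42, 6.61 and 7.03. In each of the 3 genes every dysplasia array lay below every normal array, while adenocarcinoma 1 lay above normal 3 and adenocarcinoma 2 near the dysplasia arrays. The log2 difference of Cd3d between dysplasia and normal was -1.91 ± 0.61 (SE, 3 against 3 arrays, adjusted p = 0.17 by limma over all tested genes). For Cd3e and Cd3g it was -1.80 and -1.72 (limma, adjusted p = 0.174 and 0.19). Without normal 3 Cd3d fell by 2.52 ± 0.51 (adjusted p = 0.0142), Cd3e by 2.44 ± 0.44 (adjusted p = 0.00988) and Cd3g by 2.37 ± 0.54 (adjusted p = 0.0208). In adenocarcinoma, without normal 3, Cd3e fell by 1.67 (adjusted p = 0.0442), whereas Cd3d at -1.60 and Cd3g at -1.67 did not pass the test (adjusted p = 0.0772 and 0.0789).

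Of the signalling proteins behind the receptor, Zap70, the kinase that binds the phosphorylated CD3 chains, was at 7.73, 8.04 and 6.68 in normal, 6.30, 6.37 and 6.35 in dysplasia and 6.84, 6.32 and 6.62 in adenocarcinoma. Lat, the membrane adaptor that Zap70 phosphorylates, was at 7.71, 7.72 and 6.34, then 6.07, 6.48 and 6.34, then 7.38, 6.56 and 6.79. Zap70 in dysplasia was thus at or next to background, and did not overlap with normal, whereas the Lat values of dysplasia and normal overlapped through normal 3. The dysplasia differences over the 9 arrays were -1.15 for Zap70 and -0.96 for Lat (limma, adjusted p = 0.161 and 0.209). Without normal 3 Zap70 fell by 1.55 ± 0.20 in dysplasia (limma, adjusted p = 0.00332) and by 1.29 in adenocarcinoma (adjusted p = 0.00793). A second Zap70 probe differed by -0.60 and -0.43 in that fit and did not pass (adjusted p = 0.0564 and 0.169 over all tested probes). Lat fell by 1.42 ± 0.26 in dysplasia (adjusted p = 0.0107), and its difference of -0.80 in adenocarcinoma did not pass (adjusted p = 0.0813). Cd247, the zeta chain, was only 6.25 to 6.52 on the 9 arrays. It was not above background on any dysplasia array or on normal 3, and its difference in dysplasia was -0.084 (adjusted p = 0.73). A second Cd247 probe was above background on normal 1 and normal 2 alone, at 6.65 and 6.88.

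Among the surface receptors, Cd2, an adhesion receptor of T and NK cells, was at 8.17, 8.23 and 6.82 in normal, 6.26, 6.56 and 6.28 in dysplasia and 7.11, 6.48 and 6.47 in adenocarcinoma. Cd6, a scavenger-type receptor of T cells, was at 8.13, 8.46 and 6.42, then 6.33, 6.27 and 6.38, then 7.37, 6.35 and 6.80. For both genes the whole of dysplasia lay below normal, narrowly so for Cd6 between normal 3 and dysplasia 3. Their differences in dysplasia over the 9 arrays were -1.37 and -1.34 (limma, adjusted p = 0.161 and 0.192). Without normal 3 Cd2 fell by 1.83 ± 0.23 in dysplasia and 1.51 in adenocarcinoma (limma, adjusted p = 0.00332 and 0.00819), and Cd6 fell by 1.97 ± 0.29 and 1.46 (adjusted p = 0.00506 and 0.0184). Cd28, the costimulatory receptor, was at 6.66, 7.22 and 6.34, then 6.20, 6.38 and 6.21, then 6.35, 6.03 and 6.45. Cd28 was thus highest on normal 2 and did not pass the test in dysplasia with or without normal 3 (adjusted p = 0.064 without it). Thy1, which fibroblasts and other cells also express, did not follow the CD3 chains: it was at 10.17, 10.24 and 9.57 in normal, 8.05, 8.98 and 10.19 in dysplasia and 10.05, 8.86 and 10.74 in adenocarcinoma, and its groups overlapped. Il7r, the receptor for the survival cytokine IL-7, was at 8.43, 8.31 and 7.60, then 7.20, 7.59 and 7.41, then 8.38, 7.97 and 8.13, so that all 3 adenocarcinoma arrays lay above all 3 dysplasia arrays. Over the 9 arrays Il7r differed by -0.72 in dysplasia (limma, adjusted p = 0.174). Without normal 3 Il7r fell by 0.97 ± 0.19 in dysplasia (adjusted p = 0.0125), and its difference in adenocarcinoma was -0.21 (adjusted p = 0.487). A second, dimmer Il7r probe was above background on 3 arrays, and on it the 2 lesions overlapped. Its difference in dysplasia without normal 3 was -0.035 (adjusted p = 0.913 over all tested probes).

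The co-receptors that divide T cells into helper and killer cells were read with unequal success. Neither of the probes for Cd8a was above background on any array, and the brighter Cd4 probe was above it on 2 arrays, at no more than 6.37. For Cd8b1, the partner chain of Cd8a, 3 probes were read, and they differed in their profile. The brightest was at 12.25, 12.41 and 11.59 in normal, 11.69, 11.43 and 11.21 in dysplasia and 11.52, 11.33 and 12.05 in adenocarcinoma. The next probe was at 10.34, 10.53 and 8.02, then 6.74, 7.57 and 7.56, then 9.76, 7.31 and 8.35, an order of arrays like that of Cd3d. Without normal 3 the brightest Cd8b1 probe fell in dysplasia by 0.89 ± 0.25 (limma, adjusted p = 0.0423 over all tested genes) and the next probe fell by 3.15 ± 0.65 (adjusted p = 0.016 over all tested probes), so the size of the Cd8b1 difference depended on the probe. Cd5, an inhibitory T cell receptor, was above background on 1 array, and Gzmb, a cytotoxic granule protease, on none of the 9. A probe that is not above background does not show that its gene was silent.

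The cytotoxic genes split. Nkg7, a granule membrane protein of killer T and NK cells, was at 8.58, 8.99 and 7.37 in normal, 6.40, 7.10 and 6.71 in dysplasia and 8.28, 6.50 and 7.30 in adenocarcinoma, with every dysplasia array below normal. Its difference in dysplasia was -1.58 over the 9 arrays (limma, adjusted p = 0.174). Without normal 3 it fell by 2.05 ± 0.49 in dysplasia (limma, adjusted p = 0.0248), and its difference of -1.42 in adenocarcinoma did not pass (adjusted p = 0.095). Prf1, perforin, the pore-forming protein of the same granules, went the other way: it was at 8.14, 7.82 and 8.18 in normal, 9.09, 9.48 and 8.63 in dysplasia and 9.20, 9.31 and 9.72 in adenocarcinoma, with no overlap between normal and either lesion. Its log2 difference was 1.02 ± 0.25 in dysplasia and 1.37 ± 0.25 in adenocarcinoma (adjusted p = 0.153 and 0.179), and without normal 3 it rose by 1.09 ± 0.29 and 1.43 ± 0.29 (adjusted p = 0.0338 and 0.0187). The second Prf1 probe stayed between 5.97 and 6.49 and was above background on 2 arrays, so it could not repeat the reading.

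Foxp3, the transcription factor of regulatory T cells, depended on the probe. On its brightest probe it was at 9.81, 9.81 and 10.65 in normal, 10.66, 10.68 and 10.57 in dysplasia and 10.58, 10.77 and 10.69 in adenocarcinoma, so that normal 1 and normal 2 were the lowest arrays and normal 3 lay with the lesions. Over the 9 arrays this probe differed by 0.54 in dysplasia and 0.59 in adenocarcinoma (limma, adjusted p = 0.224 and 0.296). Without normal 3 it rose by 0.82 ± 0.14 in dysplasia and 0.86 in adenocarcinoma (limma, adjusted p = 0.00773 and 0.00915). The next Foxp3 probe was dimmer, at 6.60, 6.80 and 6.32, then 6.23, 6.35 and 6.58, then 6.76, 6.32 and 6.38. Its difference over the 9 arrays ran the opposite way, at -0.19 in dysplasia. Without normal 3 the dimmer probe was at -0.31 in dysplasia and -0.21 in adenocarcinoma, and did not pass (limma, adjusted p = 0.279 and 0.494 over all tested probes). The other 2 Foxp3 probes were below background on every array. Which of these probes reads Foxp3 was not tested.

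**Figure D2:**
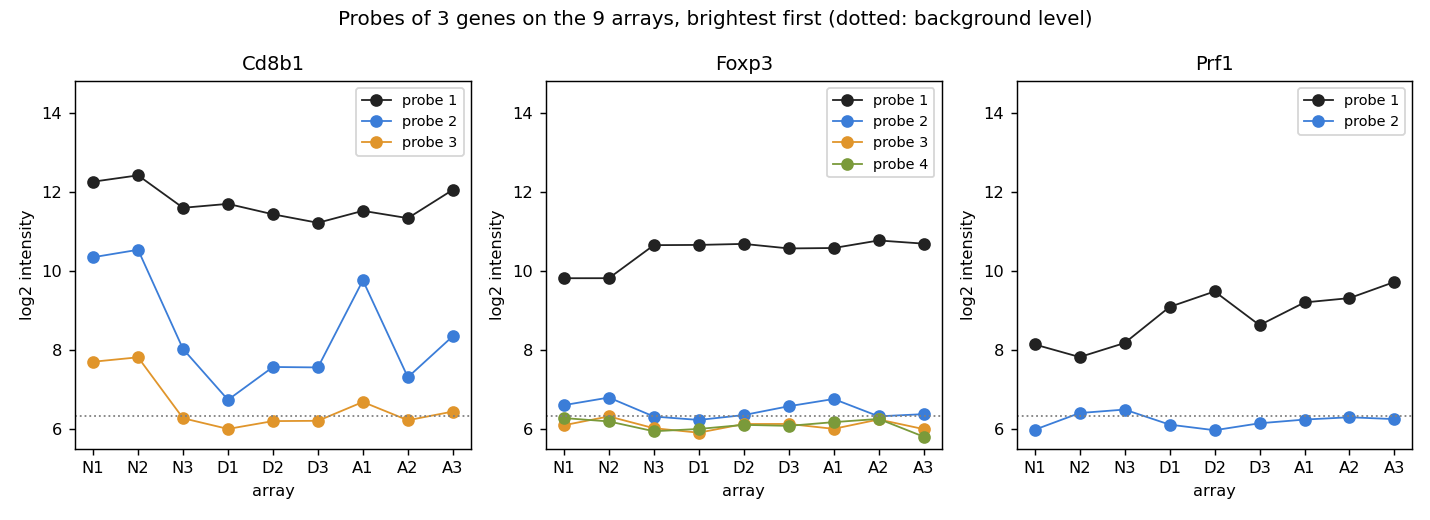
Log2 intensity of each probe of Cd8b1, Foxp3 and Prf1 on the 9 arrays (N normal, D dysplasia, A adenocarcinoma), with the background level of 6.34 as a dotted line. Within each gene the brightest probe and the next gave different orders of the arrays.

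In dysplasia over the 9 arrays the median difference was -1.53 for the B and plasma cell list and -0.72 for the T cell list. Only 15 of the 19 T cell genes with a probe were tested, and all 8 of the B and plasma cell list. The median was -1.43 over 6 genes of T cell receptor signalling and -1.35 over 5 B cell receptor and surface genes. Cd79b, the signalling chain of the B cell receptor, was at 9.86, 10.22 and 7.13 in normal, 6.25, 6.58 and 6.66 in dysplasia and 8.30, 6.57 and 7.50 in adenocarcinoma. Its second probe gave the same order of normal arrays, at 8.88, 9.10 and 6.39, and was below background on all 3 dysplasia arrays. All dysplasia arrays were below all normal arrays on the brighter probe, and the normal glands themselves spanned a wide range. Their mean was 9.07 ± 1.69 (SD, n = 3) against 6.50 ± 0.22 in dysplasia and 7.46 ± 0.86 in adenocarcinoma. The difference in dysplasia was -2.57 ± 0.79 over the 9 arrays (limma, adjusted p = 0.166). Without normal 3 Cd79b fell by 3.54 ± 0.46 in dysplasia (adjusted p = 0.00346) and by 2.58 ± 0.46 in adenocarcinoma (adjusted p = 0.0128).

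Mzb1, a chaperone that helps plasma cells and marginal zone B cells assemble and secrete antibody, was at 10.26, 10.90 and 7.94 in normal, 6.28, 6.53 and 7.18 in dysplasia and 9.79, 6.29 and 7.75 in adenocarcinoma. Fcmr, the receptor for IgM, was at 10.81, 11.20 and 6.87, then 6.49, 6.26 and 7.28, then 8.98, 6.35 and 10.50. Pou2af1, the coactivator that B cells need for germinal centres and antibody genes, was at 8.69, 8.87 and 6.56, then 6.13, 6.31 and 6.53, then 7.98, 6.12 and 6.72. For Mzb1 and Pou2af1 the whole of dysplasia lay below the whole of normal, but not for Fcmr, where dysplasia 3 lay above normal 3. The adenocarcinoma arrays were far apart: adenocarcinoma 2 was at or next to background for all 3 genes, adenocarcinoma 1 was the highest for Mzb1 and Pou2af1, and adenocarcinoma 3 was the highest for Fcmr. Over the 9 arrays the dysplasia differences of Mzb1, Fcmr and Pou2af1 were -3.04, -2.95 and -1.71 (limma, adjusted p = 0.173, 0.234 and 0.196). Without normal 3 Mzb1 fell by 3.92 ± 0.90 in dysplasia, Fcmr fell by 4.33 ± 1.06 and Pou2af1 fell by 2.45 ± 0.49 (limma, adjusted p = 0.0217, 0.0268 and 0.0135). In adenocarcinoma, without normal 3, Pou2af1 fell by 1.83 (adjusted p = 0.0459), and Mzb1 at -2.64 and Fcmr at -2.39 did not pass (adjusted p = 0.093 and 0.175).

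Cd22, an inhibitory receptor of B cells, was at 7.51, 7.98 and 6.93 in normal, 6.48, 6.40 and 6.38 in dysplasia and 6.78, 6.38 and 6.33 in adenocarcinoma. On this brightest probe it was the only tested member for which normal lay above both lesions without overlap. Its differences over the 9 arrays were -1.06 ± 0.27 and -0.98 ± 0.27 (limma, adjusted p = 0.159 and 0.225). Without normal 3 it fell by 1.33 ± 0.21 and 1.25 ± 0.21 (adjusted p = 0.00655 and 0.0111). On a second Cd22 probe normal 3, at 6.54, lay below adenocarcinoma 1, at 6.72. Without normal 3 that probe fell by 0.76 in dysplasia, and its -0.45 in adenocarcinoma did not pass (adjusted p = 0.0173 and 0.11 over all tested probes). Blk, a kinase of the B cell receptor, was above background on 3 arrays, at 7.74 on normal 1, 8.12 on normal 2 and 7.01 on adenocarcinoma 1. Normal 3 was below background for Blk too, so the difference in dysplasia over the 9 arrays, -1.35, is given without a bound (limma, adjusted p = 0.212). Without normal 3, and with dysplasia only bounded by the background, Blk was at least 3.02-fold lower in dysplasia (adjusted p = 0.00881). Ms4a1, the surface protein CD20, was dim throughout, at 6.02 to 6.88, and did not pass the test in dysplasia with or without normal 3. Tnfrsf17, the receptor BCMA of plasma cells, was above background on normal 1, normal 2 and adenocarcinoma 1, at 6.77, 6.52 and 6.94, and did not pass either. Both of these genes are therefore weak readings of B and plasma cells on these arrays.

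**Figure D3:**
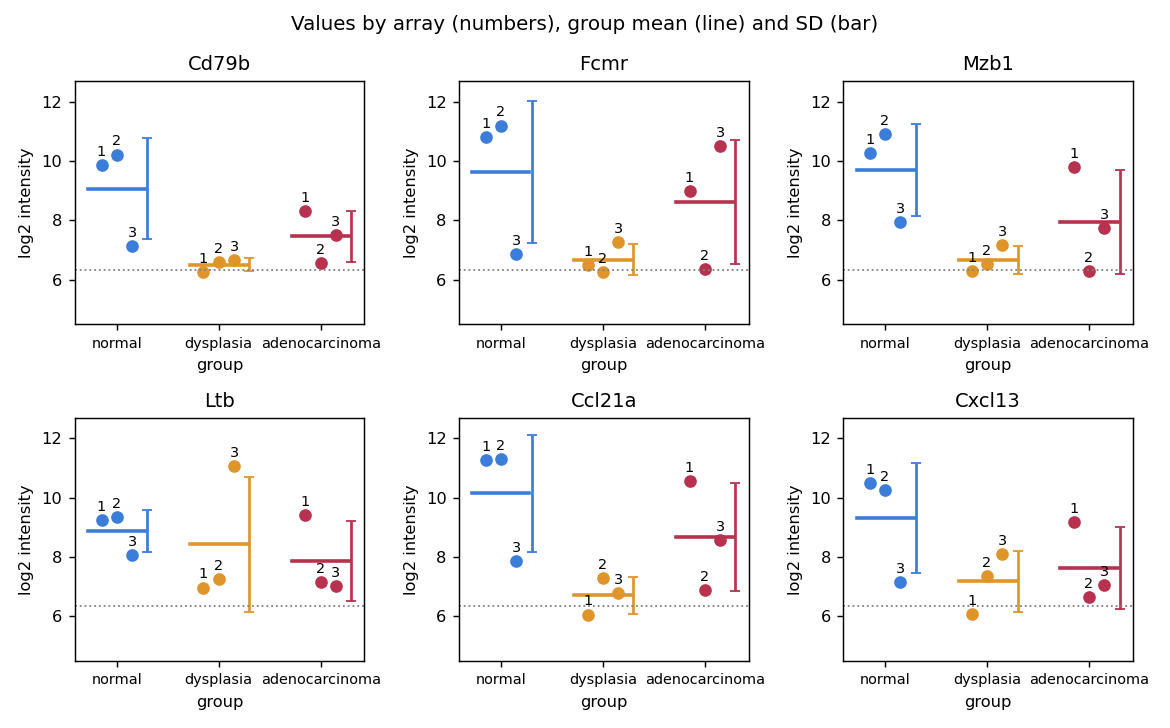
Log2 intensity of Cd79b, Fcmr, Mzb1, Ltb, Ccl21a and Cxcl13 on each array by group, with the group mean as a line, the SD of 3 arrays as a bar and the background of 6.34 as a dotted line. Normal 1 and normal 2 were the highest arrays for all but Ltb, where dysplasia 3 was the highest at 11.06.

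The genes shared by several leukocytes followed different orders of the arrays. Coro1a, an actin-binding protein of leukocytes, was at 12.13, 12.45 and 10.74 in normal, 9.22, 9.85 and 10.59 in dysplasia and 11.83, 10.32 and 11.68 in adenocarcinoma, and without normal 3 it fell by 2.40 ± 0.54 in dysplasia (limma, adjusted p = 0.0203). Cd37, a tetraspanin that is strongest on B cells, was at 7.52, 7.74 and 6.59, then 6.14, 6.39 and 6.55, then 6.79, 6.27 and 6.85. The dysplasia values of Cd37 were all below normal, and without normal 3 it fell by 1.27 ± 0.23 in dysplasia and by 1.00 in adenocarcinoma (adjusted p = 0.00988 and 0.029). Over the 9 arrays the dysplasia differences were -1.89 for Coro1a and -0.93 for Cd37 (limma, adjusted p = 0.168 and 0.174). Ptprcap, the protein that binds the phosphatase CD45, was above background on normal 1, normal 2 and adenocarcinoma 1, at 7.97, 8.23 and 6.83. With normal 3 below background, its difference in dysplasia over the 9 arrays was -1.30 (adjusted p = 0.176). Without normal 3 Ptprcap was at least 3.39-fold lower in dysplasia (adjusted p = 0.0025). Cd52, a small surface glycoprotein of lymphocytes and macrophages, was at 11.96, 12.06 and 11.28 in normal, 9.56, 10.38 and 11.77 in dysplasia and 12.98, 10.77 and 11.34 in adenocarcinoma. Cd53, a tetraspanin of most leukocytes, was at 9.77, 9.79 and 8.88, then 8.59, 9.30 and 10.62, then 10.68, 9.70 and 10.58. The Cd53 difference in adenocarcinoma was 0.84 ± 0.53 over the 9 arrays and 0.54 ± 0.57 without normal 3 (adjusted p = 0.442 and 0.562). For both genes, dysplasia 3 lay among the normal arrays or above them, and the differences in dysplasia did not pass the test with or without normal 3.

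Ltb, lymphotoxin beta, a cytokine of lymphocytes that keeps up lymphoid tissue, stood out on 1 array. Its promoter is shown because this gene alone among the members with a promoter held the NF-kB motif searched, which 1.63% of all promoters hold on either strand. The sequence is from RefSeq, build GRCm38.p6, chr17:35194257-35194556 on the plus strand, and capitals mark the NF-kB site, on the reverse strand at position -87 from the start, and the ETS cores at -118 and -100.
Ltb: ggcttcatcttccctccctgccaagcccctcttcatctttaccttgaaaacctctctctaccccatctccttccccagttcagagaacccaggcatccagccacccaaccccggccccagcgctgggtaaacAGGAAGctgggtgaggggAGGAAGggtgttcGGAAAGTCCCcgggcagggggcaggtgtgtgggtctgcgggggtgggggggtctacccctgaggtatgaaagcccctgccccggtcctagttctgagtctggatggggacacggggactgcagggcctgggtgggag
Ltb was at 9.25, 9.35 and 8.08 in normal, 6.97, 7.24 and 11.06 in dysplasia and 9.42, 7.17 and 7.03 in adenocarcinoma. Dysplasia 3 was thus the highest of the 9 arrays and the other 2 dysplasia arrays were among the 4 lowest, so the group difference of -0.47 ± 1.12 carried little (limma, adjusted p = 0.832). The difference was 0.26 without dysplasia 1, 0.12 without dysplasia 2 and -1.78 without dysplasia 3. The neutrophil gene S100a8 was also high on dysplasia 3, at 12.58 against 6.90 and 8.19 on dysplasia 1 and 2, as was the monocyte receptor Cd14 at 14.44. The part of those cells in the Ltb value was not tested. The octamer ATGCAAAT, the site read by the partner of Pou2af1, was in none of the 29 member promoters, where 1.74% of all promoters hold it. With so few promoters and so low a share, its absence says little. The RUNX core TGTGGT was in 10 of the 29 member promoters, where 16.8% of all promoters hold it.

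Over the lists, dysplasia against normal gave the wider differences. The median log2 difference was -0.72 for the T cell list, -1.53 for the B and plasma cell list and -1.06 for the shared list, where the median of all genes with a probe was 0.0046. Every dysplasia array lay below every normal array in 15 of the 29 tested members, and this held in 10.5% of all tested genes. The opposite held in 1 member, Prf1, where 12.3% of all tested genes did so. At an unadjusted p under 0.05, limma gave 17 members lower and 2 higher, beside 10.1% and 12.1% of all tested genes, and after adjustment 0 members and 0 genes passed. Without normal 3, 10 of 15 tested T cell genes fell and 2 rose, 6 of 8 B and plasma cell genes fell, and 3 of 6 shared genes fell. Over all tested genes 11.3% fell and 12.4% rose in that fit.

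Blk, Tnfrsf17 and Ptprcap entered the test through the 3 arrays on which they were high, normal 1, normal 2 and adenocarcinoma 1, so their counts among the 29 were partly set by the filter. The median differences above are over all members with a probe, tested or not.

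Adenocarcinoma against normal gave smaller median log2 differences, of -0.35 for the T cell list, -0.995 for the B and plasma cell list and -0.57 for the shared list, beside -0.0066 for all genes with a probe. Only Cd22, on its brightest probe, had every adenocarcinoma array below normal, where 9.76% of all tested genes did. Only Prf1 had every array above, where 10.4% did. After adjustment limma called 0 members and 0 genes, and at an unadjusted p under 0.05 it gave 3 members lower and 2 higher, beside 7.81% and 8.04% of all tested genes. Without normal 3, 10 members fell, where 7.85% of all tested genes fell, and 2 rose, where 7.57% rose. Adenocarcinoma 1 was the highest of its group in 20 of 29 tested members and adenocarcinoma 2 the lowest in 22, where 24.9% and 29% of all tested genes had these orders. The T cell median depended on single arrays: it was -0.14 without normal 1, -0.12 without normal 2, -0.66 without normal 3, -0.17 without adenocarcinoma 2 and -0.54 without adenocarcinoma 3. The B and plasma cell median was -0.59 without normal 2 and -1.72 without normal 3. The shared median was -0.29 without normal 2, -1.01 without normal 3 and -0.24 without adenocarcinoma 2. The comparisons with normal share the same 3 normal arrays, so they are not independent of each other.

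**Figure D4:**
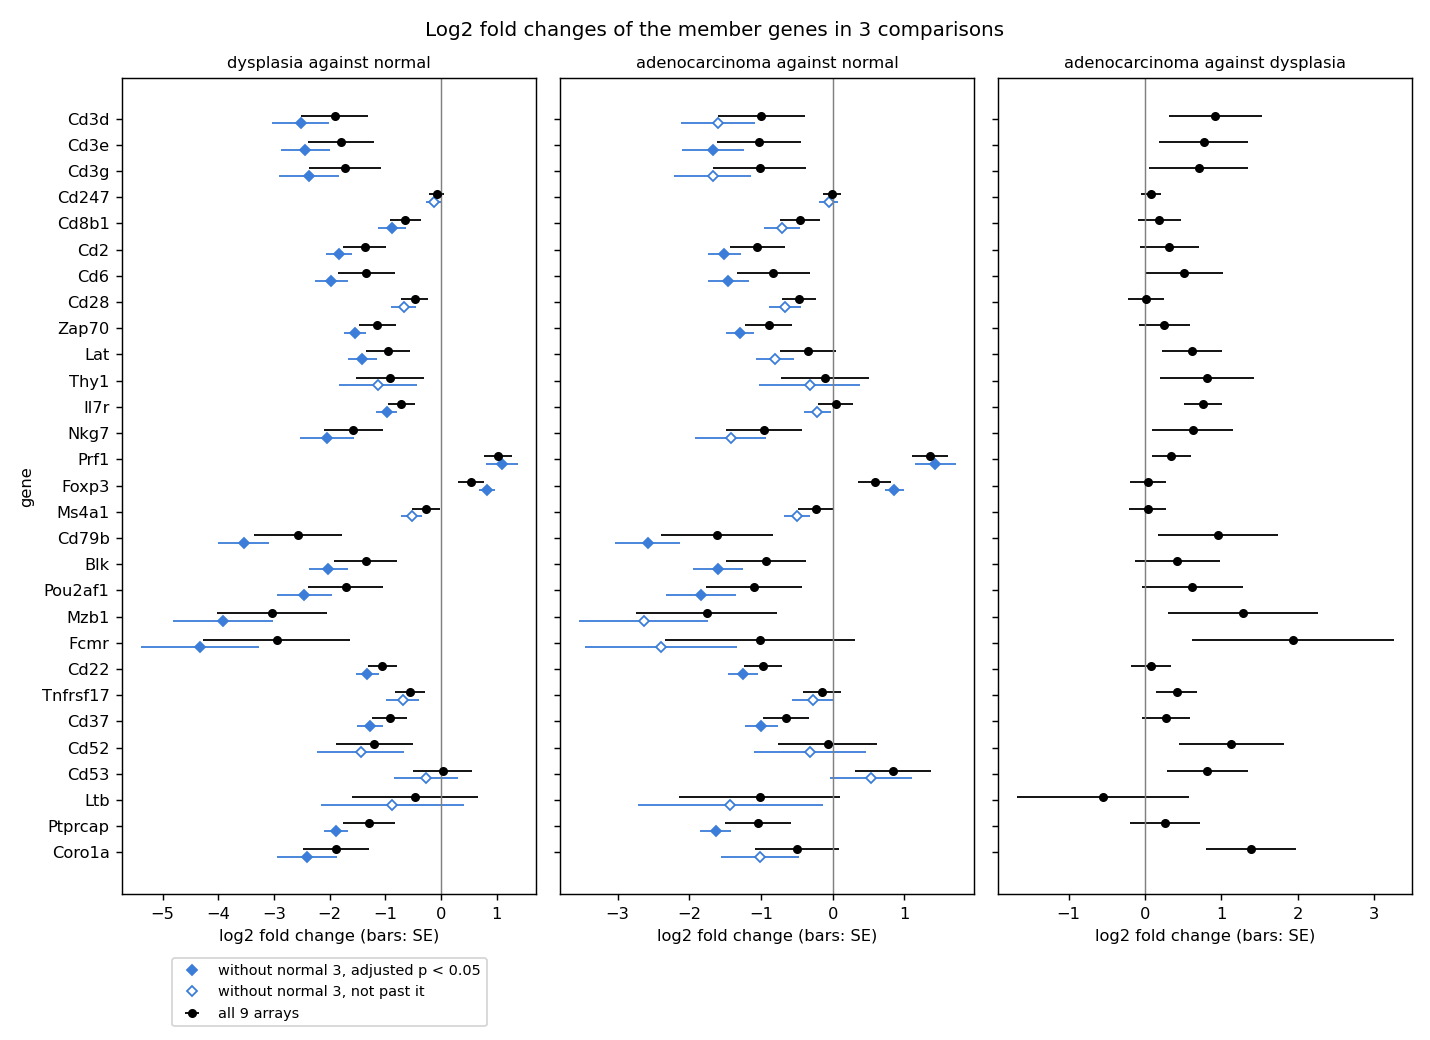
Log2 difference with its standard error for each tested member in 3 comparisons; black circles are the fit over 9 arrays and blue diamonds the fit without normal 3, filled where adjusted p was under 0.05. Normal 3 was the lowest normal array in 27 of the 29 tested members, so leaving it out by itself lowered their differences from normal. In both fits Prf1 and Foxp3 lay above 0 in both lesions, and Cd53 did in adenocarcinoma.

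Adenocarcinoma against dysplasia asks how the 2 lesions differ and does not use the normal arrays. The median log2 difference was 0.32 for the T cell list, 0.52 for the B and plasma cell list and 0.55 for the shared list, where all genes with a probe had -0.021. Without adenocarcinoma 1 these medians were 0.16, 0.11 and 0.34. The B and plasma cell median was 0.86 without adenocarcinoma 2, and the shared median was 0.28 without dysplasia 1 and 1.07 without dysplasia 3. limma called 0 members and 0 genes after adjustment, with 0.887 as the lowest adjusted p among the members, and gave 2 members higher and 0 lower at an unadjusted p under 0.05, beside 2.03% and 2.19% of all tested genes. Those 2 were Il7r, higher by 0.76 ± 0.25 with no overlap between the groups, and Coro1a, higher by 1.39 ± 0.59. Macrophage genes were higher in the same comparison, with a median of 1.10 over 13 genes, of which 7 were higher at an unadjusted p under 0.05 and 6 did not overlap. Their part in the Coro1a and Il7r values was not tested. Lat was the other member whose groups did not overlap, at 0.61 ± 0.39, and 4.03% of all tested genes had adenocarcinoma wholly above dysplasia. Fcmr differed by 1.94 ± 1.32 and Mzb1 by 1.28 ± 0.98, which is within 2 standard errors, and adenocarcinoma 2 was as low as dysplasia for both.

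Most markers of lymph nodes moved with the lymphocyte genes. Of 12 genes of lymph node stroma, high endothelial venules and follicular cells, 10 had a probe and 9 were tested. Over the 9 arrays 8 of the 10 differed from normal below 0 and 2 above 0, in dysplasia and also in adenocarcinoma. Every dysplasia array lay below normal in 3 of the 9 tested, and every adenocarcinoma array in 1. Over all tested genes this held in 10.5% and 9.76%. Their summed intensity was 1214 on normal 3 and up to 10278 on the other normal glands, 790 to 1319 in dysplasia and 930 to 4808 in adenocarcinoma. Ccl21a, a chemokine of lymphatic and node stroma that draws T cells, was at 11.28, 11.31 and 7.88 in normal, 6.06, 7.29 and 6.79 in dysplasia and 10.56, 6.90 and 8.56 in adenocarcinoma. Cxcl13, the chemokine of B cell follicles, was at 10.49, 10.26 and 7.17, then 6.06, 7.37 and 8.11, then 9.19, 6.64 and 7.05. The high endothelial genes Glycam1 and Madcam1 were above background on 4 arrays each and Chst4 on 1. As with Cd79b, both chemokines were highest on normal 1 and normal 2 and next on adenocarcinoma 1. Without normal 3, 6 of the 9 tested node genes fell in dysplasia, Ccl21a by 4.58 (limma, adjusted p = 0.015), and 2 fell in adenocarcinoma, where 11.3% and 7.85% of all tested genes fell. Ccl21a has near-identical copies that its probe may also read. The part of lymph tissue next to the gland in the lymphocyte values was not tested.

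Other tissue moved along too. The median of the adipocyte genes was 10.12, 9.35 and 6.76 in normal, 6.17, 6.48 and 6.29 in dysplasia and 8.79, 6.14 and 6.62 in adenocarcinoma, high on the same 3 arrays as the lymphocyte genes. The macrophage genes did not share this order: their median was 9.79, 9.98 and 9.15, then 8.54, 9.01 and 9.94, then 10.76, 9.22 and 10.26. Without normal 3 limma called 0 of the 13 tested in dysplasia, where 11.3% of all tested genes fell and 12.4% rose. Over the 9 arrays 1 of the 13 was lower in dysplasia at an unadjusted p under 0.05, where 10.1% of all tested genes were. In adenocarcinoma 4 of the 13 lay wholly above normal, where 10.4% of all tested genes did. The salivary genes were lower in dysplasia as well, as given above for the 11 genes. The part of adipose tissue or of the share of gland cells in the lymphocyte differences was not tested.

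**Figure D5:**
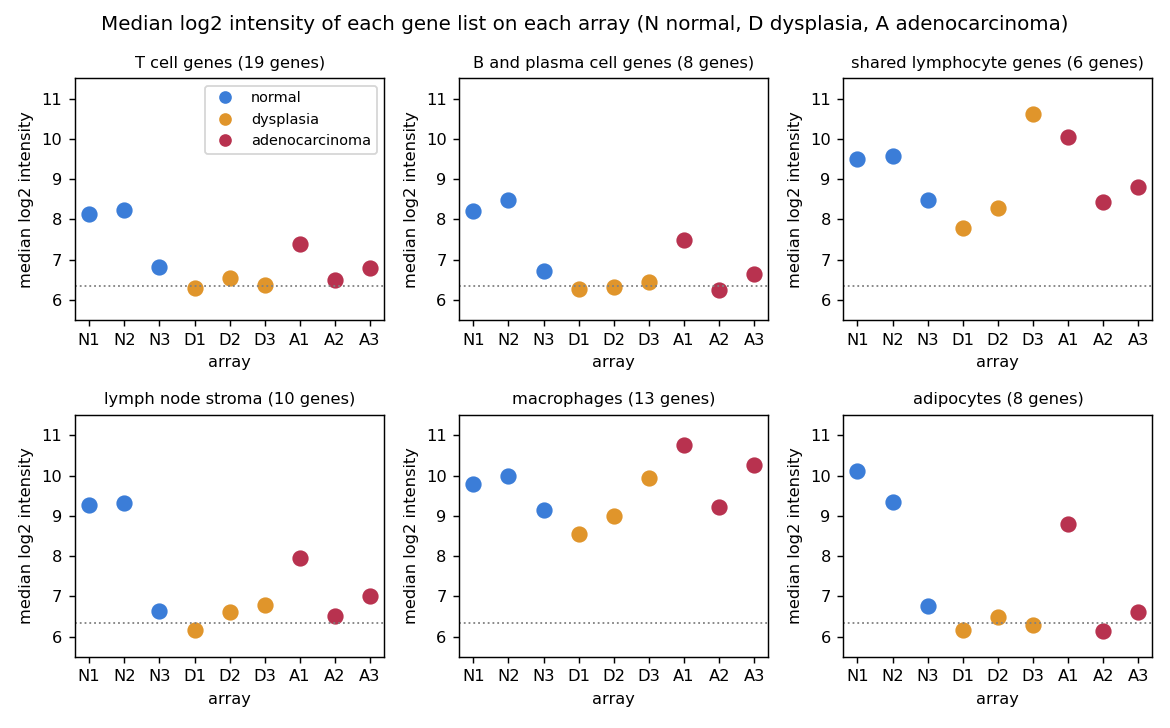
Median log2 intensity of the T cell, B and plasma cell, shared, lymph node stroma, macrophage and adipocyte lists on each of the 9 arrays, with background as a dotted line. The T, B, lymph node and adipocyte lists were highest on normal 1, normal 2 and adenocarcinoma 1, while the macrophage list was highest on adenocarcinoma 1 and 3.

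Further lymphocyte genes, listed apart from the members, were mixed. Of 10 tested T cell genes 6 fell in dysplasia without normal 3 and 3 fell in adenocarcinoma, where 11.3% and 7.85% of all tested genes fell. The median log2 difference over the 16 of that list with a probe was -0.24 in dysplasia over the 9 arrays. Satb1, a chromatin organiser of T cells that epithelium also uses, was at 11.61, 11.69 and 7.53 in normal, 7.42, 7.21 and 7.53 in dysplasia and 9.10, 6.91 and 8.42 in adenocarcinoma, and without normal 3 it fell by 4.26 in dysplasia (limma, adjusted p = 0.00369). Ikzf1, a transcription factor of lymphocytes, was at 9.29, 9.61 and 7.97, then 7.11, 7.40 and 8.06, then 8.76, 7.46 and 8.59, and without normal 3 it fell by 1.93 in dysplasia (adjusted p = 0.0214). Bcl11b, a T cell factor that epithelium also expresses, ran the other way, at 8.23, 8.35 and 9.63, then 9.95, 9.28 and 8.73, then 9.25, 8.85 and 8.28, with a difference of 1.03 in dysplasia without normal 3 that did not pass (adjusted p = 0.104).

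Of 14 tested B cell genes 8 fell in dysplasia and 6 in adenocarcinoma without normal 3, again where 11.3% and 7.85% of all tested genes fell. Bank1 and H2-Ob, both among the 8, were above background on 3 arrays only, normal 1, normal 2 and 1 adenocarcinoma array, so the filter partly set their count. Cd74, the invariant chain of antigen-presenting cells, was at 13.33, 13.65 and 12.69 in normal, 10.00, 10.67 and 11.49 in dysplasia and 13.10, 10.21 and 12.14 in adenocarcinoma, and without normal 3 it fell by 2.77 in dysplasia (limma, adjusted p = 0.0471). Macrophages and dendritic cells express Cd74 as well, so its reading is not of B cells alone. Cd72, a B cell surface receptor, was at 8.58, 8.93 and 9.31, then 8.33, 8.85 and 8.20, then 10.82, 9.09 and 9.92, with adenocarcinoma 1 highest, and its difference in adenocarcinoma without normal 3 was 1.18 (adjusted p = 0.14). Ly6d, which squamous epithelium expresses besides early B cells, ranged from 6.56 on dysplasia 1 to 12.49 on adenocarcinoma 1, and its groups overlapped.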

How the data were processed

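Gland RNA was read on 9 Illumina bead arrays. The deposited values are normalized intensities on a linear scale. How the authors normalized these intensities is not given in the sources used here; limma is named, with no version, in the submitters' processing notes. Sorted columns differed by at most 0.0992%, so the arrays share 1 distribution. A second table, whose 18 columns match no sample label, was not used.

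Intensities were taken as log2 with no pseudocount. Platform annotation gave 34885 probes 1 symbol, 18 several and 10378 none. A gene was read from its brightest probe by mean and tested if above background on at least 3 arrays. limma's moderated test (limma 3.58.1 in R 4.3.3) fitted 3 group means with 6 residual degrees of freedom, and p-values were adjusted by Benjamini-Hochberg over 12741 genes, with calls at 0.05. The fit was tested on simulated data. A permutation of 3 against 3 arrays cannot give p below 0.1, and the number of arrays limits the precision. Alternatives were an offset of 16, no filter, mean of probes, only the groups compared, a replicate block, cyclic loess, normexp, each array left out and a second probe.

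Samples that share a replicate number were checked for pairing: 2 of 9 pairs correlated above 0.1, with a range of -0.46 to 0.24. Pairs with different numbers ranged from -0.49 to 0.51. With 3 arrays per group this cannot tell whether the numbers pair the samples, and the main fit treated them as unpaired. Text names all members and, of each other list, at most 4 tested genes with the highest mean; Glycam1, Madcam1, Chst4, Bank1 and H2-Ob were named after their values were seen. In the antibody list the genes that carry most of its intensity are not named. The members and lists were chosen with earlier results of these data known.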

Additional observations from a re-analysis of the deposited data

How the results depend on the processing

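With the replicate number as a block, 0 genes passed in each comparison. Each number occurs once in each group, so the block could change only the standard errors and not the differences. Without a filter on dim probes 1 gene passed in dysplasia and 6 in adenocarcinoma against normal, and with cyclic loess 1 passed in adenocarcinoma. Cyclic loess moved Cd53 in dysplasia to -0.054. A second probe, chosen after seeing the data, put Foxp3 at -0.19 in dysplasia and -0.086 in adenocarcinoma.

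Leaving out 1 array at a time, genes called ranged from 0 to 3021 in dysplasia and 0 to 1965 in adenocarcinoma against normal, and 0 to 1 between the lesions. The high counts came without normal 3; without adenocarcinoma 2 they were 5 and 1, and without dysplasia 1 the first was 2. Members called ranged from 0 to 21 and from 0 to 12, with calls only without normal 3. The B and plasma cell median ranged from -2.24 to -1.11 in dysplasia and -1.72 to -0.59 in adenocarcinoma. In dysplasia Cd53 ranged from -0.53 to 0.48 and Ltb from -1.78 to 0.26. In adenocarcinoma against normal the ranges were -0.056 to 0.059 for Cd247, -0.54 to 0.40 for Thy1, -0.21 to 0.20 for Il7r, -2.39 to 0.12 for Fcmr, -0.71 to 0.39 for Cd52 and -0.43 to 0.063 for Tnfrsf17. Fcmr was above 0 only without adenocarcinoma 2. Between the lesions they were -0.021 to 0.34 for Cd8b1, -0.075 to 0.14 for Cd28, -0.0019 to 0.094 for Foxp3, -0.089 to 0.14 for Ms4a1, -0.062 to 0.16 for Cd22 and -1.33 to 0.77 for Ltb, the last above 0 only without dysplasia 3. The causes were not tested.

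Dim probes limit Cd247, Ms4a1, Tnfrsf17 and Blk, which lie near background on most arrays, and a difference there can at best be bounded.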

Other observations

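Genes of NK cells and of antibody secretion were listed apart from the members. Ccl5, a chemokine of cytotoxic lymphocytes, was at 10.38, 10.51 and 9.45 in normal, 7.99, 8.36 and 7.89 in dysplasia and 10.99, 8.90 and 8.98 in adenocarcinoma. Klrd1, an NK receptor chain, was at 8.62, 8.99 and 7.81, then 6.36, 7.35 and 7.11, then 9.29, 6.87 and 7.83. Dysplasia lay below normal on every array for both genes, and adenocarcinoma 1 was the highest of the 9 arrays for both. Of 5 tested NK cell genes, limma called 1 lower in dysplasia without normal 3 and 0 over the 9 arrays, with 2 lower at an unadjusted p under 0.05. Over all tested genes 11.3% were called lower in the first fit and 10.1% were lower at an unadjusted p under 0.05 over the 9 arrays.

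The antibody and plasma cell genes did not move as a block. Of 15 listed, 7 had a probe and 5 were tested. The summed intensity of the 7 was 16058 to 19073 in normal, 18892 to 23243 in dysplasia and 7349 to 19995 in adenocarcinoma. Most of that sum came from genes not named here. Irf4, a transcription factor that plasma cells need, was at 8.36, 7.80 and 6.39 in normal, 6.14, 6.11 and 6.43 in dysplasia and 6.98, 6.13 and 6.41 in adenocarcinoma. Derl3, an endoplasmic reticulum protein of secretory cells, was at 10.00, 10.13 and 7.43, then 7.72, 7.43 and 6.31, then 7.37, 7.66 and 7.76. Sdc1, a plasma cell marker that epithelium also expresses, ran the other way, from 6.68 on normal 1 to 8.84 on normal 3 in normal, then 8.97, 8.47 and 9.29, then 8.64, 9.25 and 7.92. For all 3 genes normal 3 lay nearer to the lesions than to normal 1 and normal 2. Of 5 tested genes of this list, 2 fell and 1 rose in dysplasia without normal 3, where 11.3% of all tested genes fell and 12.4% rose. Over the 9 arrays 1 of the 5 had dysplasia wholly above normal and 1 wholly below, where 12.3% and 10.5% of all tested genes did. Neither of these is named above.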
